A study of Mus musculus with 8 samples.

Results

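Proteasome genes were followed through 8 microglia libraries from the brains of young and aged mice after experimental stroke or sham surgery. The members were the rows of the deposited count table whose symbol begins with Psma, Psmb, Psmc, Psmd or Psme and a number, pseudogenes left out, with at least 15 counts in all. The rule took 45 of 17261 genes, and all 45 entered the test of 11955 genes. They were set in 3 groups by known role. The 31 constitutive genes form the standard particle. The 5 induced genes are Psmb8, Psmb9, Psmb10, Psme1 and Psme2. The other 9 are the activators Psme3 and Psme4, the assembly chaperones Psmd5, Psmd9 and Psmd10, the tissue subunits Psmb11 and Psma8, the Psme2 copy Psme2b, and Psmc3ip.

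All mice were wild type C57BL/6 males, either 10 weeks old (young) or 18 months old (aged). Each age was divided between distal middle cerebral artery occlusion (dMCAO), which blocks a cortical artery, and sham surgery, with 2 libraries in each of the 4 groups. Cells were taken 14 days after surgery by sorting for CD11b and an intermediate level of CD45, a gate used for microglia, the resident macrophages of the brain. The labels do not say whether the 2 libraries of a group came from separate animals, so the p-values measure only the spread between these samples, which may be technical.

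The proteasome is the protease complex that degrades proteins tagged with ubiquitin. Its barrel is built of stacked rings of alpha subunits, which form the gate, and beta subunits, of which Psmb5, Psmb6 and Psmb7 carry the active sites. A cap of ATPases (Psmc genes), which unfold the substrate, and of non-ATPase subunits (Psmd genes), which bind and trim ubiquitin chains, sits on the barrel. Under interferon gamma, Psmb8, Psmb9 and Psmb10 replace Psmb5, Psmb6 and Psmb7 to give the immunoproteasome, and Psme1 and Psme2 form PA28, an alternative cap. Both favour the production of peptides for class I presentation. In microglia the immunoproteasome is known as a part of the interferon response.

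The upstream sequences of 2 exchanged pairs are shown because each pair sets an inducible gene against the gene it replaces. Promoters came from the RefSeq table of build GRCm38.p6, which matched 38 of the 45 members with a window of 250 bases before to 50 after the start. Searches were made on both strands for TGACNNNGC, the core of the antioxidant response element bound by Nfe2l1 and Nfe2l2, and for GAAA followed after any 2 bases by GAAA, a form of the interferon-stimulated response element (ISRE). No match of one motif overlapped a match of the other in the members. Capitals mark a match to either motif, and the first 4 sequences are the 100 bases before the start.
Psmb5 (constitutive, chr14:54617996-54618095, minus strand): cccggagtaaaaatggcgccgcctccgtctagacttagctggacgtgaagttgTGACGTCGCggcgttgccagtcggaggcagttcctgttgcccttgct
Psmb8 (inducible, chr17:34198095-34198194, plus strand): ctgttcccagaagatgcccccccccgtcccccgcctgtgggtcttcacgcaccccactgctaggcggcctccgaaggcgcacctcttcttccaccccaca
Psmb6 (constitutive, chr11:70525257-70525356, plus strand): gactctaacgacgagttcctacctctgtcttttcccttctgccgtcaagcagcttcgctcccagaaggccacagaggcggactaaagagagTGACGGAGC
Psmb9 (inducible, chr17:34187331-34187430, minus strand): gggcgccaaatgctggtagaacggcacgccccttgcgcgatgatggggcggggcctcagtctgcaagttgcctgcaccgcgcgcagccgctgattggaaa
Psme1 (PA28, chr14:55578494-55578523, plus strand, 30 bases after the start): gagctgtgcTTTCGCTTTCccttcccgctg

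TGACNNNGC lay in 4 of the 25 constitutive promoters (Psmb5, Psmb6, Psmc6 and Psmd12) and in 0 of the 5 induced promoters, against 12.4% of all 32851 promoters. The ISRE form lay in 1 of the 5 induced promoters (Psme1) and in 2 of the 25 constitutive ones (Psmb3 and Psmd4), against 3.44% of all promoters. Of the 8 other promoters, Psmd9 held both motifs and Psme4 held TGACNNNGC. A match describes letters only, and no binding was measured here.

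Levels are given as CPM, reads per 1e6 of the library total after TMM scaling, which corrects totals for differences in RNA composition. Totals were 4181698 to 5767387 counts in the 4 young libraries and in aged sham 2 (5124213), 1484870 in aged sham 1, and 747637 and 1297568 in aged dMCAO 1 and 2. The 3 shallower libraries hold fewer member counts: 14 and 11 of the 45 members had under 10 counts in aged dMCAO 1 and 2. A count of 0 allows up to 0.474 CPM in young sham 1 and up to 4.29 CPM in aged dMCAO 1, counting error only. All 11 microglial markers were detected in every library. Their summed level was 16083 to 23154 CPM in 7 libraries and 6896 CPM in aged sham 2. That library also held 8829 CPM of 11 monocyte markers, against 243 to 1593 CPM elsewhere (all 11 detected, with Ccr2 at 332 CPM against at most 42.2), and 4270 CPM of 10 dendritic cell and class II markers, against 254 to 835 CPM, with Xcr1 and Clec9a at 0 there. T and NK cell markers summed to 81.5 CPM in it and 2.15 to 19.7 CPM elsewhere. Aged dMCAO 1 and 2 held 5387 and 3645 CPM of 8 choroid plexus and ependymal markers, against 4.84 to 896 CPM in the other 6. Most of this was Ttr (3964 and 3071 CPM) and Enpp2 (1270 and 386 CPM). Kl, Clic6 and Kcnj13 were also above the other 6 in both libraries, Folr1 only in aged dMCAO 2 and Prlr only in aged dMCAO 1. Foxj1 had 0 counts in both. The ribosomal precursor Rn45s took 34.3% of aged dMCAO 2 and 3.44 to 13.4% of the others. In these bulk samples, fewer cells of a type and less RNA per cell cannot be told apart.

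Together the 45 members took 1756 to 1871 CPM in the young libraries and 2442 to 2483 CPM in the aged ones. The order depends on the scaling. As an unscaled share of all counts they took 0.186 to 0.203% in young libraries and 0.234 and 0.280% in aged sham. In aged dMCAO 1 and 2 they took 0.228 and 0.174%, the last below every young library. All counts here include Rn45s, which took 34.3% of aged dMCAO 2 and 3.44 to 8.60% of the young libraries. A larger Rn45s part lowers the unscaled share of every other gene. The 31 constitutive genes summed to 1237 to 1318 CPM in young and 1609 to 1739 CPM in aged libraries. The 5 induced genes summed to 271 to 307 CPM in young libraries, to 607 and 544 CPM in aged sham 1 and 2, and to 493 CPM in each aged dMCAO library. In the 4 young libraries the sums were thus close to one another whatever the surgery.

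**Figure D1:**
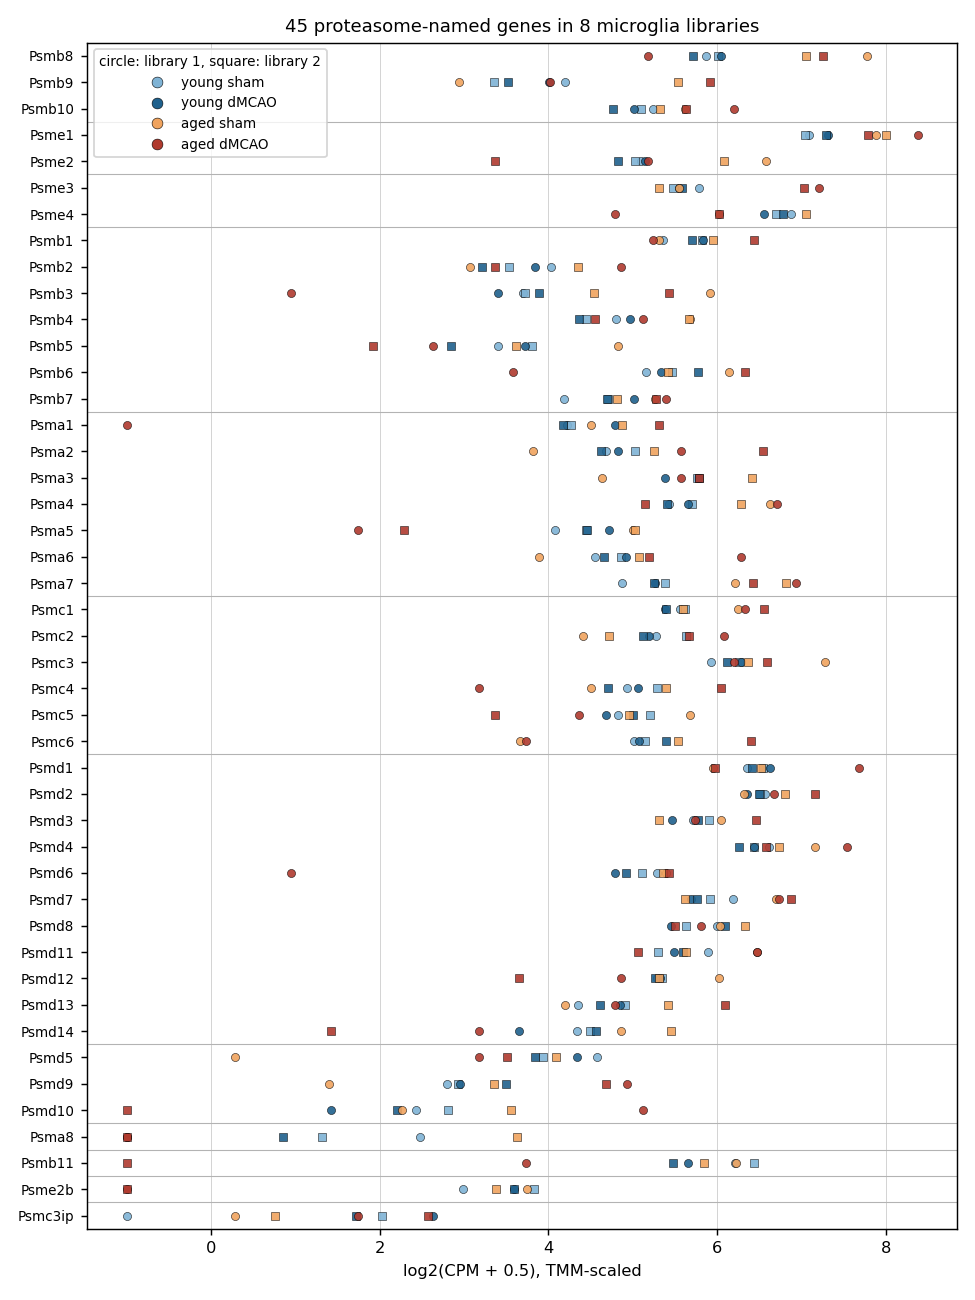
Level of each of the 45 members in each library as log2 of TMM-scaled CPM plus 0.5 (x axis), 1 gene per row, grouped by role and with lines between roles. Circles are library 1 and squares library 2 of a group, and colours are the 4 groups. The blue young points lie close together in most rows, whereas the red aged dMCAO points reach 0 counts for Psma1, Psmd10, Psmb11, Psma8 and Psme2b in at least 1 library.

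Compared per kilobase of exon (GENCODE M21 gene models, GRCm38), PA28 alpha was the most abundant member transcript of the young libraries. Psme1 (chromosome 14, 55578123 to 55581529) had 66.0 CPM per kilobase on average, with a range of 59.6 to 72.0. It was followed by Psmd4, a ubiquitin receptor of the cap, at 30.8, and by the ATPase Psmc3 at 27.2 CPM per kilobase. Those 2 genes overlapped in range, at 27.1 to 34.8 and 23.2 to 29.7 CPM per kilobase. Among the inducible catalytic genes, Psmb10 had 19.0 and Psmb8 17.7 CPM per kilobase, ranks 11 and 14 of the 45, with overlapping ranges of 15.6 to 22.0 and 15.4 to 19.4. Psmb9 was at rank 40 with 3.70 CPM per kilobase (2.65 to 4.88). These ranks depend on the gene models, because all annotated exons of a gene were joined and may exceed the transcript expressed. The joined length was 3660 bases for Psmb9, 3381 for Psmb8, 1705 for Psmb10 and 899 for Psmb5. In the deposited FPKM (fragments scaled by gene length and library total), the young columns listed Psmb9 at 8.08, 12.8, 20.6 and 8.76. Psmb10 was listed there at 12.7, 16.2, 12.5 and 10.9 FPKM. The constitutive catalytic genes were at 23.1 (Psmb6), 11.95 (Psmb5) and 7.33 (Psmb7) CPM per kilobase. Lowest of all was Psma8, a testis subunit, at 0.836 CPM per kilobase. Some gene models share exon bases with a gene on the other strand, and the strand setting of the counting is not given in the sources used here. Such overlaps cover 14.7% of Psmb8 (antisense Gm20496), 5.79% of Psmb9 (Tap1), 11.8% of Psmb7 (Nek6) and 25.5% of Psmd9 (Gm26745). They also cover 8.25% of Psmc3 (Slc39a13) and 10.1% of Psmd13 (Sirt3), among other members. Psmb5 shares 12.1% of its exon bases with Mir686 on the same strand. The counts of these genes may include reads of the partner or lack shared reads.

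The induced genes differed among themselves in how they varied between libraries. Psmb8, the inducible partner of Psmb5 (chromosome 17, 34197721 to 34201454), stood in young mice at 58.1 and 64.0 CPM after sham surgery and at 65.7 and 52.0 CPM after dMCAO, and in aged mice at 219 and 133 CPM after sham surgery and at 35.8 and 153 CPM after dMCAO. Both aged sham libraries were above every young one, and the aged dMCAO libraries lay on either side of the young range. Psmb9, the partner of Psmb6 (chromosome 17, 34181987 to 34187764), stood in young mice at 17.9 and 9.71 CPM after sham surgery and at 15.5 and 10.99 CPM after dMCAO, and in aged mice at 7.16 and 46.1 CPM after sham surgery and at 15.7 and 60.2 CPM after dMCAO. Its highest values were in aged sham 2 and aged dMCAO 2, and aged sham 1 held the lowest of all 8. Psmb10, the partner of Psmb7 (chromosome 8, 105935735 to 105938444), stood in young mice at 37.4 and 33.7 CPM after sham surgery and at 31.7 and 26.6 CPM after dMCAO, and in aged mice at 48.7 and 39.7 CPM after sham surgery and at 73.0 and 49.2 CPM after dMCAO. All 4 aged libraries lay above all 4 young ones.

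PA28 is built of products of a pair of neighbouring genes, and their levels diverged in the aged dMCAO libraries. Psme1 stood in young mice at 136 and 132 CPM after sham surgery and at 159 and 157 CPM after dMCAO, and in aged mice at 237 and 257 CPM after sham surgery and at 333 and 221 CPM after dMCAO. Every aged library was above every young one. Psme2 (chromosome 14, 55587441 to 55591113) stood in young mice at 33.8 and 32.1 CPM after sham surgery and at 35.02 and 27.8 CPM after dMCAO, and in aged mice at 95.2 and 67.4 CPM after sham surgery and at 35.8 and 9.84 CPM after dMCAO. Its aged sham libraries were above all others, and the aged dMCAO 2 value rests on 9 counts. Psme2b on chromosome 11 is a copy of Psme2 that is 99.4% identical over 794 aligned bases, so reads of the pair may be exchanged or lost and the counts of both are uncertain. Psme2b had 7.42 to 13.7 CPM in 6 libraries, and 0 counts in both aged dMCAO libraries, which allows up to 4.29 and 3.28 CPM there.

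**Figure D2:**
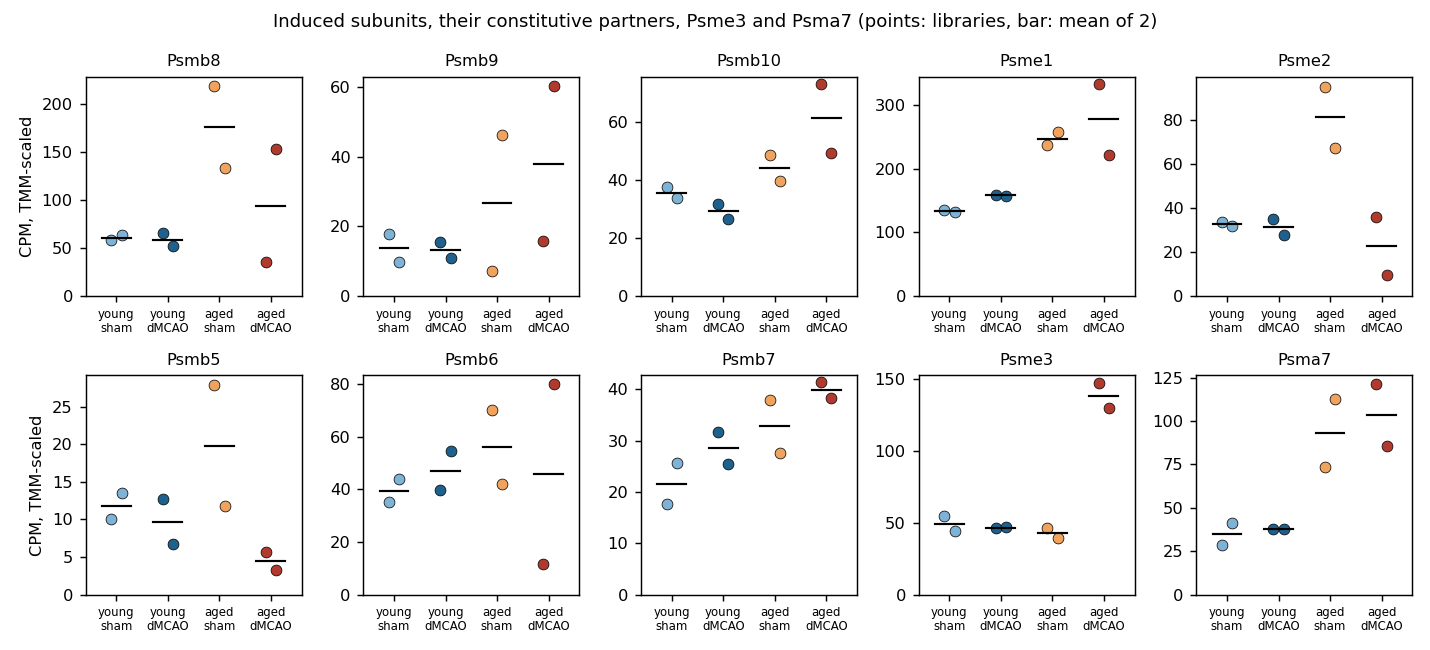
TMM-scaled CPM (y axis, each panel from 0) of the 5 induced genes, the 3 catalytic genes that the inducible ones replace, Psme3 and Psma7 in the 4 groups (x axis). Points are libraries and the bar is the mean of 2; Psme1, Psmb10 and Psma7 show all 4 aged points above the 4 young ones, and Psme3 is high in aged dMCAO alone.

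The ratio of counts of each inducible gene to its constitutive partner within a library does not depend on scaling. Psmb8 to Psmb5 was 5.75 and 4.75 (sham) and 5.17 and 7.75 (dMCAO) in young mice, and 7.85 and 11.3 (sham) and 6.25 and 46.7 (dMCAO) in aged mice. The last value rests on 3 counts of Psmb5, with an exact 95% counting interval of 15.6 to 229, and the aged dMCAO 1 value on 4 counts (2.16 to 24.7). Psmb9 to Psmb6 was 0.507 and 0.222 (sham) and 0.390 and 0.202 (dMCAO) in young mice, and 0.102 and 1.09 (sham) and 1.38 and 0.753 (dMCAO) in aged mice. It was lowest in aged sham 1, with an interval of 0.0474 to 0.196, and above all young values in the other 3 aged libraries. The aged dMCAO 1 ratio there has 8 counts of Psmb6 and an interval of 0.504 to 3.94. Psmb10 to Psmb7 was 2.12 and 1.32 (sham) and 1.00 and 1.05 (dMCAO) in young mice, and 1.28 and 1.44 (sham) and 1.76 and 1.29 (dMCAO) in aged mice. The young dMCAO values were below the young sham ones, and the aged groups overlapped. A 2-sided exact permutation test of 2 libraries against 2 cannot go below p = 0.33, so no ratio was tested.

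**Figure D3:**
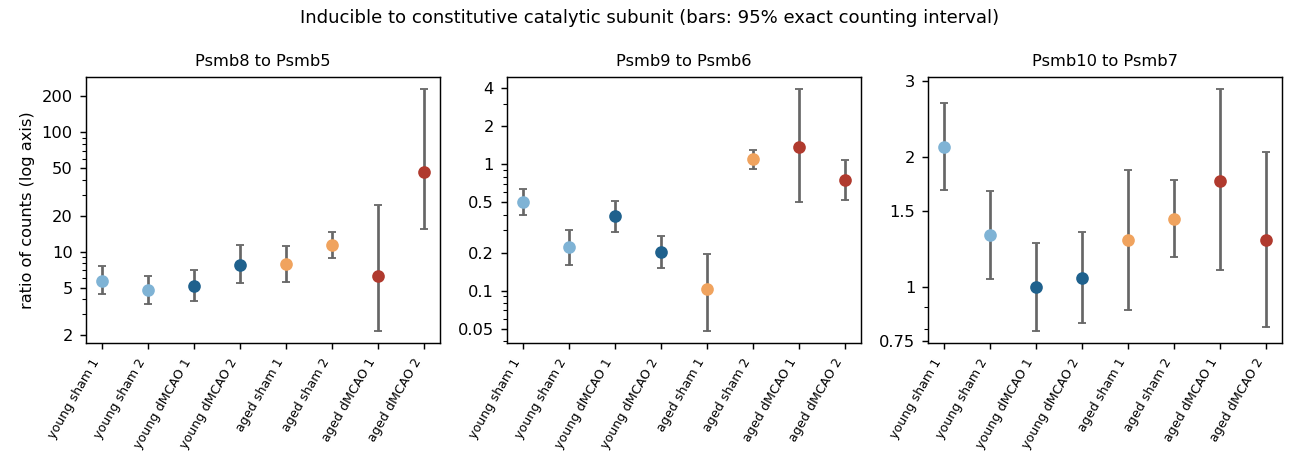
Ratio of counts of each inducible catalytic gene to the constitutive gene it replaces (log y axis) in each library (x axis), coloured by group. Bars are exact 95% counting intervals; they are widest in aged dMCAO, where Psmb8 to Psmb5 reached 46.7 on 3 Psmb5 counts, and Psmb9 to Psmb6 spans 0.102 to 1.38 over the aged libraries.

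The first comparison asks whether stroke surgery changed proteasome expression in young microglia. No member was called with edgeR's quasi-likelihood test of all 8 libraries (adjusted p under 0.05): 0 of 45, against 0.00836% of all genes, and 0 at an unadjusted p under 0.05, against 1.24%. DESeq2 and limma-voom called 0 as well. The spread in that fit is shared with the aged libraries, with a biological coefficient of variation of 0.570. In a fit of the 4 young libraries alone it was 0.198, so that fit gives the narrower intervals. There 0 of 45 members were called, against 1.53% of 11337 genes, and 1 had an unadjusted p under 0.05, against 10.9%. Both dMCAO libraries exceeded both sham ones for 3 members (Psma5, Psme1 and Psmd9), against 20.7% of genes, and 9 members, Psmb10 and Psmb11 among them, were lower in both, against 20.4%.

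In that young fit, the fold change of dMCAO over sham was 0.961 for Psmb8, with a 95% interval of 0.728 to 1.27. It was 0.952 for Psmb9 (0.533 to 1.70) and 0.818 for Psmb10 (0.588 to 1.14). The PA28 genes were at 1.18 for Psme1 (0.947 to 1.47) and 0.949 for Psme2 (0.680 to 1.32). Apart from Psmb9, each interval ended under 1.5-fold. Among the constitutive genes the log2 fold changes ran from −0.35 to 0.40, 12 of 31 were above 0, and the median was −0.04, as against −0.00 over all genes tested. The lowest p among these belonged to Psmd7, the cap subunit that pairs with the deubiquitinase Psmd14 (72.5 and 59.8 CPM in sham, 51.0 and 54.0 in dMCAO, log2 fold change −0.34, adjusted p = 0.555). The member with an unadjusted p under 0.05 was Psmb11, the beta subunit of the thymus proteasome (73.5 and 86.4 CPM in sham, 50.1 and 44.0 in dMCAO, log2 fold change −0.77, adjusted p = 0.0560). Its gene model begins 3877 bases before the RefSeq start of Psmb11, so its counts may include reads from outside that transcript.

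Genes of class I presentation, a step downstream of the proteasome, and the regulator Nlrc5 were measured in the same young fit. The list held 16 genes, of which 14 were tested. Of these, 5 rose and 0 fell (adjusted p under 0.05), against 1.53% of 11337 genes called in either direction in that fit. Sums of some marker lists also differed between the young groups. The 10 dendritic cell and class II markers summed to 254 and 315 CPM in sham and 489 and 471 CPM in dMCAO. The largest part was Cd74, at 146 and 172 against 275 and 262 CPM. H2-Ab1 and H2-Eb1 were also higher in both dMCAO libraries, and Itgax stood at 6.00 and 7.93 against 37.4 and 66.9 CPM. Flt3, Zbtb46, Cd209a and Ccr7 overlapped between the groups. Xcr1 stood at 1.58 and 0.594 against 1.97 and 1.68 CPM, and Clec9a at 0 to 0.396 CPM. The 8 choroid plexus and ependymal markers summed to 118 and 388 CPM in sham and 10.9 and 4.84 CPM in dMCAO, and the 11 monocyte markers to 243 and 901 against 1227 and 785 CPM, which overlap. The part of these markers in the class I values was not tested. H2-D1, a class I heavy chain, stood at 41.4 and 42.01 CPM in young sham and 142 and 142 CPM in young dMCAO, a 3.39-fold change (2.66 to 4.33, adjusted p = 9.77e-05). Nlrc5, the transactivator of class I genes, rose 3.81-fold (adjusted p = 0.000399), H2-K1 2.35-fold (adjusted p = 0.00471), H2-Q4 2.77-fold (adjusted p = 0.0161) and B2m, the class I light chain, 1.67-fold (adjusted p = 0.0318). Tap1, a subunit of the peptide transporter and the neighbour of Psmb9, stood at 47.1 and 48.9 CPM in sham and 83.4 and 74.7 in dMCAO (1.64-fold, adjusted p = 0.0630). Of 13 ubiquitin genes, 1 rose, against the same 1.53% of all genes: Sqstm1, an autophagy receptor for ubiquitin, was 2.05-fold higher (adjusted p = 0.0103). None of 13 assembly and cap genes and none of 9 genes of proteasome transcription was called, with 1 and 3 at an unadjusted p under 0.05, against 10.9% of all genes in that fit. Maff, a small partner of Nfe2l1 and Nfe2l2, came nearest (37.0 and 10.5 CPM in sham, 58.9 and 85.3 in dMCAO, log2 fold change 1.58, adjusted p = 0.0795). With all 8 libraries in the fit, none of these list genes passed (smallest adjusted p 0.895, H2-D1), and the difference between the lists and the induced genes was not tested.

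**Figure D4:**
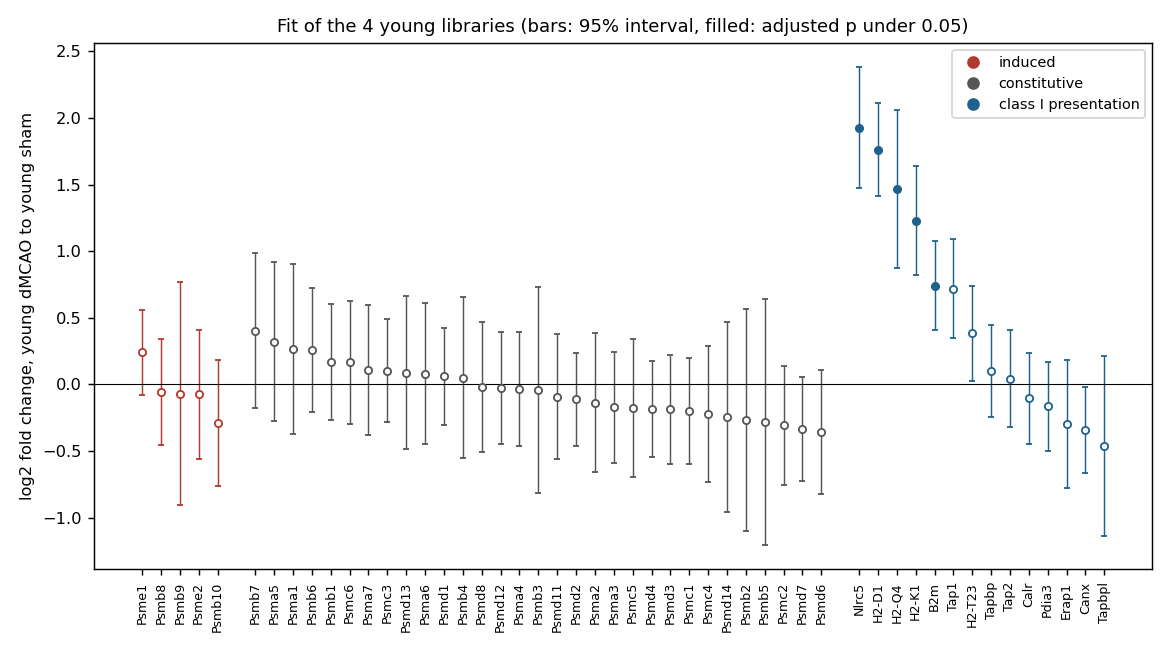
Log2 fold change of young dMCAO over young sham (y axis) with 95% intervals from the fit of the 4 young libraries, for the 5 induced genes, the 31 constitutive genes and the 14 tested class I presentation genes (x axis, ordered within each set). Filled points have an adjusted p under 0.05; these are Nlrc5, H2-D1, H2-Q4, H2-K1 and B2m, and no proteasome gene.

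The second comparison, dMCAO against sham in aged mice, gave 0 called members of 45, against 0.0335% of all genes, and 7 members at an unadjusted p under 0.05 (2 higher, 5 lower), 15.6% of them against 18.3% of all genes. DESeq2 called 6: Psme3 and Psmc2 higher, Psma5, Psmb11, Psmd14 and Psme2b lower. Here and below, the share of all genes that DESeq2 called is not given, so its counts cannot be read against the edgeR shares. limma-voom called 0. The median log2 fold change was 0.16 for the induced and 0.14 for the constitutive genes, against −0.29 over all genes. On the FPKM table they turned to −0.84 and −0.91, where all genes had a median of −0.92. Of the induced genes 3 and of the constitutive genes 16 were above 0. Members stood apart in both directions: 10 of 45 were higher in each dMCAO library than in either sham one, against 11.6% of all genes, and 10 were lower, against 23.8%.

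Psme3, which encodes PA28 gamma, the nuclear activator, stood at 46.5 and 39.3 CPM in aged sham and 147 and 130 CPM in aged dMCAO, against 44.2 to 54.8 CPM in the young libraries. The 2 aged dMCAO libraries were above all 6 others (log2 fold change against aged sham 1.70 ± 0.38, SE; adjusted p = 0.126 with edgeR). It was called by DESeq2 (adjusted p = 7.59e-05), and by edgeR without aged dMCAO 2 (adjusted p = 0.0452). The deposited FPKM table does not show this order for Psme3: it lists 22.0, 24.6, 51.4 and 39.3 FPKM in the young columns and 6.24, 7.27, 9.04 and 15.2 FPKM in the aged ones. Psma5, an alpha ring subunit, stood at 31.5 and 32.0 CPM in aged sham and 2.86 and 4.38 CPM in aged dMCAO, on 2 and 4 counts (log2 fold change −3.10 ± 0.79, SE, adjusted p = 0.142). Its young range was 16.4 to 25.8 CPM, and the FPKM table also lists it lowest in the aged dMCAO columns, at 0.672 and 0.705 FPKM against 7.23 to 14.1 elsewhere. Psmb11 stood at 74.5 and 57.2 CPM in aged sham and 12.9 and 0 in aged dMCAO, on 9 and 0 counts (log2 fold change −3.44, adjusted p = 0.156). It was called by edgeR without aged dMCAO 1 (adjusted p = 0.0345) and without aged dMCAO 2 (0.0487). Leaving out aged dMCAO 2 also called Psma1 and Psmd6, which had 0 and 1 counts in aged dMCAO 1. Psmd14, the deubiquitinase of the cap, had 28.6 and 43.4 CPM in aged sham and 8.58 and 2.19 CPM in aged dMCAO, on 6 and 2 counts.

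Of the induced genes, Psme2 had the smallest p in aged mice (log2 fold change −1.85 ± 0.65, SE, adjusted p = 0.208), and was called without aged dMCAO 1 (adjusted p = 0.0405). Psmb8 was at −0.88 (95% interval −2.23 to 0.46) and Psmb9 at 0.49 (−1.73 to 2.71), the latter reversing to −0.79 without aged dMCAO 2 and to −0.27 without aged sham 1. Psmb10 was at 0.47 (−0.63 to 1.57). Psme1 was at 0.16 (−0.51 to 0.84) and reversed to −0.16 without aged dMCAO 1. The constitutive catalytic genes were at −2.13 (Psmb5), −0.28 (Psmb6) and 0.29 (Psmb7), and Psme4, the PA200 activator, at −1.10, with adjusted p from 0.288 to 0.878. The summed choroid plexus and ependymal markers given above were also highest in aged dMCAO, and their part in these values was not tested.

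The third comparison asks how age alone stood in sham mice. No member was called (0 of 45, against 0% of all genes), and 3 had an unadjusted p under 0.05, all higher, 6.67% of members against 9.44% of genes. DESeq2 called 1, Psma7, and limma-voom 0. All 5 induced genes and 24 of 31 constitutive genes had a fitted change above 0. The medians were 0.98 and 0.37, against −0.02 over all genes. In FPKM they were 0.44 and −0.19, against −0.39 over all genes there. In 16 of 45 members both aged sham libraries lay above both young sham libraries, against 18.3% of genes, and in 1, Psmc2, both lay below, against 26.1%. The 16 include Psmb8, Psmb10, Psme1, Psme2 and 12 constitutive genes.

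Psma7, an alpha ring subunit, stood at 28.8 and 41.4 CPM in young sham and 73.7 and 113 CPM in aged sham (2.67-fold, log2 1.42 ± 0.43, SE; adjusted p = 0.369 with edgeR and 0.0279 with DESeq2). Psmb8 was 2.87-fold higher in the fit (95% interval of log2 0.19 to 2.86, adjusted p = 0.467), Psme2 2.46-fold (−0.09 to 2.69, adjusted p = 0.579) and Psme1 1.85-fold (0.21 to 1.56, adjusted p = 0.406). Psmb10 was at 1.24-fold (adjusted p = 0.935) and Psmb9 at 1.97-fold (adjusted p = 0.881). The Psmb9 value comes from aged sham 2 and reversed to a log2 of −0.94 without it. That library holds the high monocyte and dendritic cell markers, and it also had the highest Nlrc5 (170 CPM, against 15.03 in aged sham 1) and Tap1 (159 against 44.4 CPM). The part of those markers in the Psmb9 value was not tested. Psmb8, Psme1 and Psme2 were also above the young libraries in aged sham 1. That library too was above the young ones in other markers, with 1579 CPM of monocyte markers against 243 to 1227 CPM. Border macrophage markers summed to 789 CPM in it (121 to 389 in young libraries) and neutrophil markers to 1401 CPM (328 to 926). The part of these markers in the values of the 3 genes was not tested. The constitutive partners were at 1.66-fold (Psmb5), 1.41-fold (Psmb6) and 1.51-fold (Psmb7).

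When the 3 shallower libraries were left out, a choice made after seeing the data, aged sham 2 alone was set against the 2 young sham libraries with the spread of the young groups. The log2 fold change was then 1.14 for Psmb8, 1.75 for Psmb9, 0.96 for Psme1, 1.05 for Psme2 and 1.71 for Psma7. Psmb10 lay between 0.14 and 0.45 over all alternative fits of this comparison. This fit assumes that the lone aged library varies like the young groups, and it is the library with the high monocyte markers. What brought about these values was not tested.

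The fourth comparison, age in dMCAO mice, called 0 of 45 members, against 0.0753% of all genes, with 8 at an unadjusted p under 0.05 (5 higher, 3 lower), 17.8% against 19.6%. DESeq2 called 8: Psma7, Psmb10, Psmc1, Psme1 and Psme3 higher, Psma5, Psmb11 and Psme2b lower. The share of 0.0753% is that of edgeR, and the share for DESeq2 is not given. limma-voom called 0. The medians were 0.81 for the induced and 0.39 for the constitutive genes, against −0.32 over all genes. On the FPKM table they were −0.39 and −1.18, against −1.31 over all genes. In 14 members both aged dMCAO libraries lay above both young ones, against 15.5% of genes, and in 9 below, against 40.4%. Among members above a mean of 10 CPM, the smallest p belonged to Psme3 (log2 fold change 1.57 ± 0.38, SE, adjusted p = 0.105), Psma5 (−2.68, adjusted p = 0.138) and Psma7 (1.45 ± 0.43, adjusted p = 0.140). On the FPKM table the Psme3 value turned to −1.85 (limma, adjusted p = 0.0510, and 0.0449 with a pseudocount of 0.1 in place of 1). With counts, Psme3, Psma1 and Psmd6 were called without aged dMCAO 2 (Psme3 at adjusted p = 0.0486), and Psmb11 without aged dMCAO 1. Psmd7 was 2.12-fold higher in the fit (51.0 and 54.0 CPM in young, 106 and 117 in aged dMCAO, adjusted p = 0.228). Of the induced genes, Psme1 was at 0.81 (0.13 to 1.49, adjusted p = 0.198), Psmb10 at 1.06, Psmb9 at 1.52, Psmb8 at 0.69 and Psme2 at −0.48, with adjusted p from 0.198 to 0.703. Without aged dMCAO 2, Psmb8 turned to −0.73 and Psme2 to 0.18. On the FPKM table Psmb8, Psmb9, Psmb10 and Psme1 were all below 0, at −0.69, −0.38, −0.06 and −0.39. This comparison shares libraries with the second, so its values are no separate evidence.

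Whether the response to dMCAO differed with age was tested as an interaction. No member was called (0 of 45, against 0% of all genes), and 4 had an unadjusted p under 0.05, 8.89% against 10.4%. DESeq2 called 2, Psme3 and Psma5, and limma-voom 0. The interaction was 1.78 ± 0.53 (SE) on the log2 scale for Psme3 (adjusted p = 0.391), −3.42 ± 1.03 for Psma5 (adjusted p = 0.393) and, next among members above a mean of 10 CPM, 1.63 ± 0.69 for Psmc2, an ATPase of the cap (adjusted p = 0.468). Psmc2 stood in young mice at 38.2 and 49.1 CPM after sham surgery and at 36.1 and 34.5 CPM after dMCAO, and in aged mice at 20.8 and 25.9 CPM after sham surgery and at 67.2 and 50.3 CPM after dMCAO. The induced genes lay between −1.78 (Psme2) and 0.75 (Psmb10). The Psme3 interaction was −0.20 on the FPKM table.

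Age averaged over both surgeries, a comparison added after seeing the data, sets all 4 aged against all 4 young libraries. It called 0 of 45 members with edgeR, against 1.31% of all genes, and 7 had an unadjusted p under 0.05 (5 higher, 2 lower), 15.6% against 21.1%. The nearest were Psma7 (log2 fold change 1.43 ± 0.30, SE, adjusted p = 0.0562) and Psme1 (0.85 ± 0.21, adjusted p = 0.0855). limma-voom called both (adjusted p = 0.0300 and 0.0434), and DESeq2 called 6, these among them. The share of 1.31% belongs to the main edgeR fit, and shares for the alternative fits are not given. Psma7 was also called by edgeR with RLE factors (adjusted p = 0.0474) and without any 1 of the aged libraries (adjusted p from 0.0323 to 0.0483), and Psme1 without aged dMCAO 2 (0.0331). Psmb8 and Psmb11 were also called without aged dMCAO 1, and Psma1, Psma4 and Psmd6 without aged dMCAO 2. With limma the FPKM table gave Psme3 alone, as lower (adjusted p = 0.0376). All 4 aged libraries were above all 4 young ones for 3 of 45 members, Psma7, Psmb10 and Psme1, against 3.83% of all genes, and below for 0, against 10.7%. For Psma7 the young range was 28.8 to 41.4 CPM and the aged range 73.7 to 122 CPM. For Psme1 the ranges were 132 to 159 and 221 to 333 CPM, and for Psmb10 26.6 to 37.4 and 39.7 to 73.0 CPM. On the FPKM table Psma7 was listed at 14.7 to 21.5 FPKM in young columns and at 17.8 to 63.6 in aged ones. There Psme1 was at 83.3 to 100 FPKM in young columns and 44.5 to 151 in aged ones, so the ranges of these genes overlap in that table.

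Genes that work with the proteasome were given the same test of age. Among the ubiquitin genes, Rps27a, which encodes a fusion of ubiquitin and a ribosomal protein, rose with age averaged over both surgeries. It stood at 128 to 195 CPM in young and 336 to 401 CPM in aged libraries (log2 fold change 1.16 ± 0.22, SE, adjusted p = 0.0469 with edgeR). None of the 13 assembly and cap genes, 9 transcription genes, 14 class I genes or 13 interferon gamma genes was called in that comparison, with 3, 0, 2 and 4 at an unadjusted p under 0.05, against 21.1% of all genes. Pomp, the chaperone that completes the barrel, stood at 44.1 to 50.9 CPM in young and 27.2 to 60.8 CPM in aged libraries, and Nfe2l1, which drives proteasome genes when activity is short, at 104 to 130 and 95.8 to 180 CPM.

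The constitutive genes also show how firmly a subunit was measured. Between the 2 libraries of a group, the median absolute log2 difference of the 31 genes was 0.31 and 0.26 in the sham and dMCAO groups of young mice and 0.71 and 0.99 in those of aged mice. Counting error alone gives a median SD of the difference of 0.14, 0.15, 0.20 and 0.32 in that order, which is below the median difference in each group. More than 2-fold apart were 0, 0, 9 and 15 of 31 genes. Of all genes in the same CPM range 4.29, 3.15, 44.7 and 58.9% were that far apart. The widest pair was Psma1 in aged dMCAO, at 0 and 36 counts, and Psmb3 and Psmd6 had 1 count in aged dMCAO 1 and 39 in aged dMCAO 2. In young libraries the widest pairs were Psmd11 in sham (58.8 and 39.0 CPM) and Psmd14 in dMCAO (12.04 and 23.1 CPM).

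**Figure D5:**
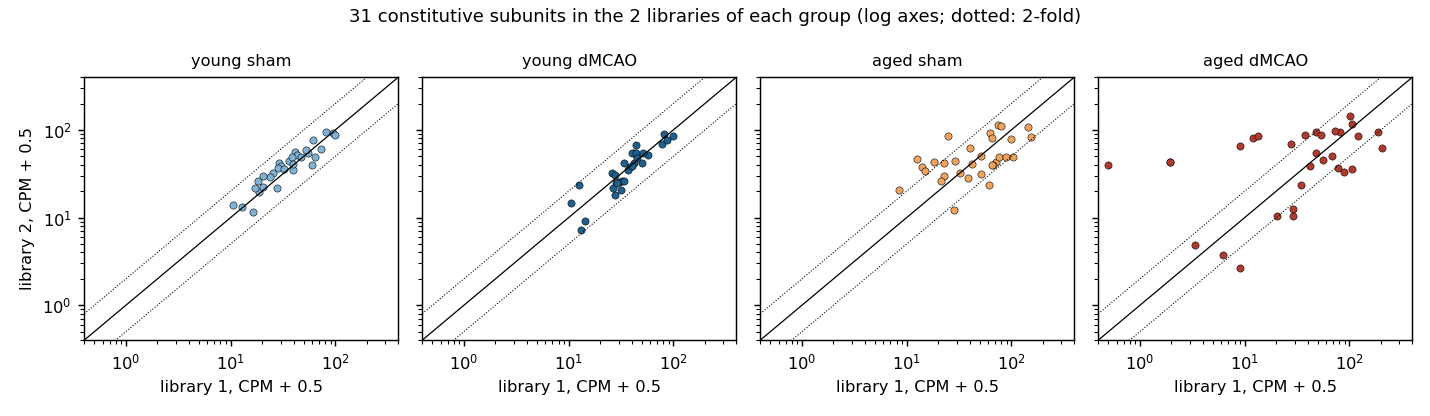
TMM-scaled CPM plus 0.5 of the 31 constitutive genes in library 1 (x axis) against library 2 (y axis) of each group, both on log axes, with the line of equality and dotted lines at 2-fold. All 31 points lie within the dotted lines in both young groups, whereas 9 lie outside in aged sham and 15 in aged dMCAO.

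The remaining members were low or are related by name alone. Psmd9, a chaperone of the cap, stood at 6.48 to 10.8 CPM in young, 2.15 and 9.70 in aged sham, and 30.04 and 25.2 CPM in aged dMCAO. The chaperone Psmd5 stood at 13.8 to 23.4 CPM in young libraries and at 0.716 and 16.5 CPM in aged sham, where aged sham 1 had 1 count. Psmd10 ranged from 0 to 34.3 CPM within aged dMCAO. Psma8 had 0 counts in 4 libraries, young dMCAO 1, aged sham 1 and both aged dMCAO, and 11.9 CPM at most, in aged sham 2. Psmc3ip, a recombination protein named for binding Psmc3 and no subunit, had 0 to 26 counts. None of these passed in any comparison with edgeR.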

How the data were processed

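RNA of sorted microglia was sequenced on an Illumina HiSeq after Pico-kit library preparation (SMARTer Stranded Total RNA-Seq), per the labels. The submitters' processing notes name TopHat, TopHat2, Cufflinks 2.2.1, HTSeq 0.11.2 and the mouse build mm10. The report states where the unknown strand setting matters. The authors deposited raw counts per gene symbol for 17261 genes, which are whole numbers. The authors also deposited FPKM (fragments scaled by gene length and library total) for 23827 genes, 43 of the members among them.

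Counts were tested in R 4.3.3 with edgeR 4.0.16 (filterByExpr, minimum count 10, minimum total 15, TMM, 1 mean per group, quasi-likelihood test, two-sided, 4 residual degrees of freedom). Adjustment was by Benjamini-Hochberg over 11955 genes, with calls under 0.05. The SE is the absolute log2 fold change over the root of F. Alternatives were RLE and upper-quartile factors, DESeq2 1.42.0, limma-voom 3.58.1, no filter, only the groups compared, blocks by label number, Rn45s left out, each library left out, and limma-trend on log2(FPKM + 1). The scripts were tested on simulated data. The library totals, 747637 to 5767387 counts, set the precision. Python 3.11.15 with matplotlib 3.10.9 made the figures.

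Named are the induced genes, their partners, Psme3, Psme4, called members or else the 3 smallest p above a mean of 10 CPM, members in by name only, and of each list the called genes and up to 2 with the smallest p. Results for some genes of those lists are not reported here. Members and lists were chosen with earlier results of these data known. Other members are named as examples chosen after their values were seen. Libraries with the same number did not deviate together (correlations −0.08 to 0.09), so numbers were not used as pairs.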

Additional observations from a re-analysis of the deposited data

How the results depend on the processing

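With counts, 83 of 102 alternative counts of called members stayed at 0 and 19 were above 0; of 602 values of single genes, 556 kept direction and side of the threshold, 33 passed it and 13 reversed. Where 0 were called, DESeq2 called 6 (dMCAO in aged mice), 1 (age in sham), 8 (age in dMCAO), 2 (interaction) and 6 members (age averaged). For age averaged, RLE factors called 1 and limma-voom 2. Shares over all genes are not given for the alternatives in this section, so their counts are no result about the members. Leaving out 1 library gave 0 to 4, 0 to 3 and 0 to 5 members for dMCAO in aged mice, age in dMCAO and age averaged, the highest without aged dMCAO 2 (Psma1, Psmb11, Psmd6 and Psme3; Psma1, Psmd6 and Psme3; Psma1, Psma4, Psma7, Psmd6 and Psme1). Without the 3 shallower libraries, 9 were called for age in sham. The cause was not tested. Leaving out a library moved the median of the induced genes to between −0.79 and 0.26 (dMCAO in aged mice) and between 0.23 and 0.94 (age in dMCAO), and that of the constitutive genes to between −0.23 and 0.18 and between 0.038 and 0.52. limma-voom put the constitutive median for dMCAO in aged mice at −0.14.

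The labels give 2 sets of numbers. A replicate block by number called 0 members in every comparison. A replicate block by the N code called 1 for dMCAO in aged mice, 1 for age in dMCAO (Psmb11 both times) and 3 for age averaged (Psma7, Psmb8, Psmb11). It turned Psmb8 to 0.0146, Psme2 to 0.28 and Psmd7 to 0.0125 in young mice. The samples share only a number.

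Single genes reversed when 1 library was left out. For dMCAO in young mice, Psmb8 ranged from −0.27 to 0.0759, Psmb9 from −0.45 to 0.41 and Psme2 from −0.28 to 0.0594; all 3 were above 0 without young dMCAO 2, and Psmb9 also without young sham 1. For dMCAO in aged mice, Psmb9 ranged from −0.79 to 2.46 and Psme1 from −0.16 to 0.43. For age in sham, Psmb9 ranged from −0.94 to 1.72. For age in dMCAO, Psmb8 ranged from −0.73 to 1.36 and Psme2 from −1.69 to 0.18.

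The FPKM table moved 31 of 36 medians and reversed 36 of 124 single gene values, and its columns are not scaled by TMM; the cause was not tested. With a pseudocount of 1, with or without the filter, the induced medians were −0.84 (dMCAO in aged mice), 0.44 (age in sham), −0.39 (age in dMCAO) and −0.83 (interaction). The constitutive medians were −0.91, −0.19, −1.18 and −1.11 in that order, and −0.21 for dMCAO in young mice. With a pseudocount of 0.1 the induced medians were −0.85, 0.44, −0.41 and −0.84 and the constitutive ones −0.97, −0.20, −1.28, −1.19 and −0.23. Less its young sham 1 column, a choice made after seeing the data, the induced medians were 0.57 (age in sham) and −0.96 (interaction), and the constitutive ones 0.0654 and −1.15. With 0.1, 1 and 5 members were called for dMCAO in aged mice and age in dMCAO. With 1, 4 were called for age in dMCAO, or 2 without the filter. For age averaged each of these called 1 (Psme3, lower).

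Single genes reversed on FPKM as follows, with pseudocounts of 1 and 0.1. For dMCAO in young mice, Psmb9 stood at 0.38 and 0.40 (0.0776 less the young sham 1 column) and Psme1 at −0.0089 with both. For dMCAO in aged mice, Psmb9 stood at −0.20 and −0.16, Psmb10 at −0.69 and −0.74, and Psme1 at −0.84 and −0.85. For age in dMCAO, Psmb8 stood at −0.69 and −0.74, Psmb9 at −0.38 and −0.41, Psmb10 at −0.0617 and −0.0763, Psme1 at −0.39 and −0.40, and Psme3 at −1.85 and −1.93. The Psme3 interaction stood at −0.20 and −0.15, and at −0.12 less the young sham 1 column. For age in sham, Psmb9 stood at −0.10 less that column.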

Other observations

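The count and FPKM columns of the same label did not always carry the same profile. Across 9658 genes found in both tables, log2 values were taken less the gene's mean over the 8 columns. The FPKM column of aged dMCAO 1 correlated with the counts of aged dMCAO 2 (r = 0.854) and not with its own (r = −0.05), and that of aged dMCAO 2 with the counts of aged dMCAO 1 (r = 0.879, own r = −0.03). Both columns belong to 1 group. The FPKM of young sham 2 correlated more with the counts of young sham 1 (0.650) than with its own (0.460), and that of young sham 1 with no young library by more than 0.317. The other 4 columns correlated with their own counts at 0.574 to 0.856. Genes are not independent replicates, and these are descriptions. For the members this shows in Psmb8, listed in the aged dMCAO columns at 23.4 and 8.77 FPKM where the counts gave 35.8 and 153 CPM. Psma2 and Psmc6 are listed at 558 and 258 FPKM in young sham 2, against 5.92 to 21.8 and 2.37 to 22.0 FPKM in the other columns.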
